A study of Mus musculus with 16 samples.

Results

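The mitochondrial ribosomal protein genes were examined in mouse ventricles after diet-induced chronic kidney disease (CKD). They were taken as every protein-coding gene of GENCODE release M21 whose symbol begins with Mrpl or Mrps followed by a digit, matched to the count table by Ensembl identifier. This gave 78 of the 33399 genes in the table, 49 Mrpl and 29 Mrps genes, and 77 of them passed the filter on low counts. No measured value entered the choice. RNA from the ventricles of 16 wild-type C57BL/6 mice was sequenced, 1 library a mouse, in 4 groups of 4: male controls, male CKD mice, female controls and female CKD mice. CKD was induced from 8 weeks of age by a regimen that the submitters call high-dose, in which chow with 0.25% adenine took turns with plain chow over 6 weeks. The regimen aimed at a median blood urea nitrogen, which climbs as filtration by the kidney fails, of 40 to 70 mg/dL. Controls ate plain chow for the same time, and all 4 groups carry the same wild-type genotype. The series title names pro-arrhythmic remodelling, and the comparisons ask whether CKD changed these transcripts, over all mice and within males or females.

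Mitochondria carry their own ribosomes, which make the few respiratory-chain and ATP synthase subunits that mitochondrial DNA encodes. Their ribosomal RNA comes from mitochondrial DNA, whereas every protein of the large (Mrpl) and small (Mrps) subunit is encoded in the nucleus, made in the cytosol and imported. Part of these proteins descend from bacterial ribosomal proteins and others exist only in mitochondria. The heart depends on this machinery because most of its ATP comes from oxidative phosphorylation, and inherited defects in several of these genes cause cardiomyopathy in infancy.

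The libraries held 10203707 to 13626039 counts, and mitochondrial ribosomal protein genes took 0.470% to 0.729% of them. Values below are CPM, the share of a library's counts scaled to a common total, on library sizes scaled by TMM, a method that balances libraries on the bulk of their genes. The label of ventricle was checked on marker lists: 8 ventricular cardiomyocyte markers summed to between 29410 and 49630 CPM, and 7 atrial markers to between 172 and 928 CPM. The atrial sums of male control 3 and male CKD 4 were 928 and 760 CPM, against 172 to 465 CPM in the other male libraries. Female controls ranged from 257 to 819 CPM and female CKD mice from 282 to 417 CPM. Markers of fibroblasts, endothelium, pericytes and macrophages were present in every library, as whole ventricle holds these cells too. In such bulk samples fewer cells of a type and less RNA per cell cannot be told apart. One library stood apart. In male CKD 4 the 8 fibroblast markers summed to 498 CPM, against 1911, 2193 and 1944 CPM in the other male CKD libraries. Its endothelial markers summed to 268 CPM against 630, 830 and 741 CPM, and its ventricular cardiomyocyte markers to 49630 CPM against 35924, 36275 and 37369 CPM. Male CKD 4 and male control 3 also share the number 3 in the code of their sample titles, a number that no label explains. Results that rest on male CKD 4 are therefore given with and without it.

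In control ventricles the genes spanned a wide range of levels per length. Levels between genes are compared as RPKM, which is CPM per kilobase of exon in the annotation. The median over the 77 genes tested was 24.1 RPKM. Mrpl12, which forms part of the stalk that recruits translation factors and also binds mitochondrial RNA polymerase, was highest at 119 RPKM ± 17.7 (SD, n = 8). Mrps23, a small-subunit protein found only in mitochondria, stood at 115 RPKM ± 7.76 (SD, n = 8). Mrps21, which resembles bacterial S21, stood at 110.4 RPKM ± 14.8 (SD, n = 8). The gaps between these 3 were under 1 SD of the paired log2 gap over mice, whereas Mrpl18, in the large subunit's central protuberance, came next at 87.8 RPKM ± 7.83 (SD, n = 8) with a gap of 0.33 ± 0.097 log2 below Mrps21. At the low end were Mrpl32 at 6.84 RPKM ± 0.379, Mrps25 at 6.14 RPKM ± 0.705, Mrps30 at 5.07 RPKM ± 1.32 and Mrps10 at 3.20 RPKM ± 0.389 (SD, n = 8 each). Along the whole order, 69 of 76 neighbouring pairs lay closer than 1 SD, so single ranks carry little. When the longest transcript replaced all annotated exons as the length, 5 of these 8 genes stayed among the highest or lowest 4. Per library rather than per length, Mrpl42 gave the most reads, at 303 CPM ± 28.2 (SD, n = 8) in controls.

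Mrpl53 could not be measured. It had 0 to 3 counts in each library, and 88.0% of its annotated exon bases lie within the same-strand gene Gm42688, which itself had 2 to 13 counts. No source used here says how reads shared by overlapping genes were counted.

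The summed level of the 78 genes was alike in most libraries. The male controls gave 5224, 4714, 6049 and 4779 CPM, and the male CKD mice 4690, 4789, 4934 and 8312 CPM. The female controls gave 5214, 5224, 5007 and 5188 CPM, and the female CKD mice 5365, 5566, 5109 and 5001 CPM. All libraries but male control 3 and male CKD 4 lay between 4690 and 5566 CPM, and CKD and control overlapped in both sexes. Over all mice the mean was 5175 CPM ± 409 (SD, n = 8) in controls and 5471 CPM ± 1184 (SD, n = 8) with CKD, and 5065 CPM ± 311 (SD, n = 7) with CKD when male CKD 4 was left out. The Mrpl and Mrps genes, divided by symbol, moved in step from library to library. The ratio of summed Mrpl to summed Mrps CPM was 2.20 ± 0.0326 (SD, n = 8) in controls and 2.16 ± 0.0331 (SD, n = 8) with CKD, with all 16 libraries between 2.11 and 2.27, male CKD 4 at 2.13 included.

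**Figure D1:**
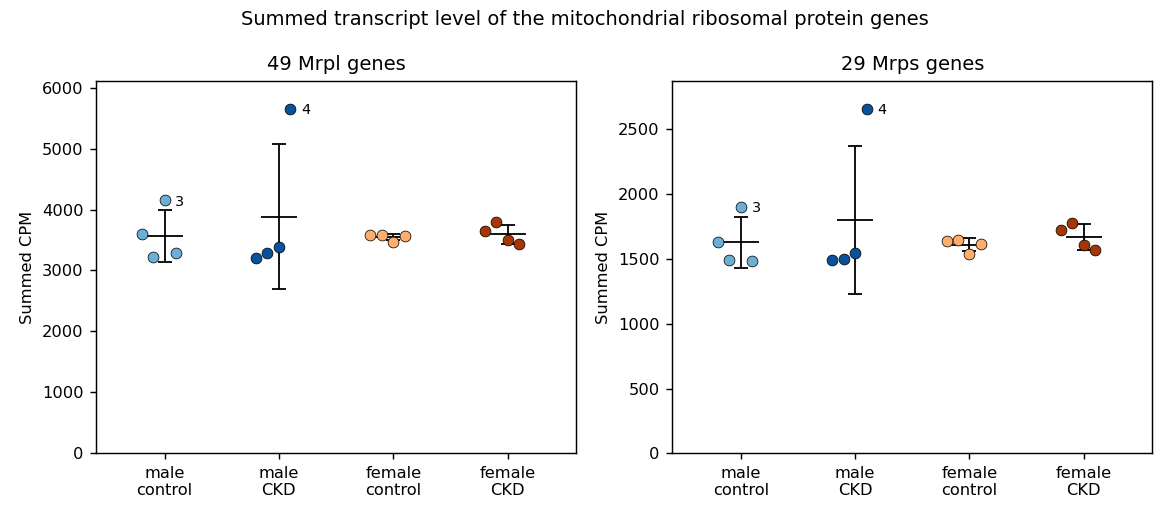
Summed CPM of the 49 Mrpl genes (left) and the 29 Mrps genes (right) in each library, with 1 point a mouse and bars for the mean ± SD of 4 mice; the libraries male control 3 and male CKD 4 carry their number. Male CKD 4 lies at 5655 CPM (Mrpl) and 2657 CPM (Mrps), above all other libraries, and the remaining points of the 4 groups overlap.

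No mitochondrial ribosomal protein gene passed the test for CKD against control. By edgeR's quasi-likelihood test with sex as a covariate and Benjamini-Hochberg adjustment over 16400 genes, 0 of 77 passed an adjusted p of 0.05, where 0.0854% of all genes tested did. DESeq2 (2.43% of all genes called), limma-voom with quality weights (1.21%) and edgeR with the title code number as a factor (1.43%) also called 0. At an unadjusted p under 0.05, 0 genes were higher (8.12% of all genes tested) and 2 were lower (7.24%), Mrps2 and Mrpl10. These nominal counts varied with the setting. The title code number as a factor gave 8 higher and 4 lower among 3315 of all 16400 genes, and leaving out code number 3 gave 5 and 5 among 2748 of 16507. With limma-voom 0 were higher and 8 lower among 3162 of 16400, and without male CKD 4 0 and 8 among 2433 of 16594. The estimates were small: log2 fold changes ran from -0.23 for Mrpl4 to 0.27 for Mrpl23, with a median standard error of 0.12. All 77 intervals at 95% lay within a 1.5-fold change either way, from a lowest bound of -0.51 for Mrpl4 to a highest of 0.57 for Mrpl23. For the average over both sexes, changes beyond 1.5-fold were thus outside the intervals, and smaller ones were not resolved for most genes.

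The lean of the estimates rested on 1 library. With all libraries 61 genes were above 0 and 16 below, with a median of 0.075 log2 against 0.0017 over all genes tested, of which 50.2% were above 0. Without male CKD 4 there were 27 above and 50 below, with a median of -0.036 against -0.0092 over all genes. In that fit too, 0 members passed the adjusted threshold (0.0603% of all genes).

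**Figure D2:**
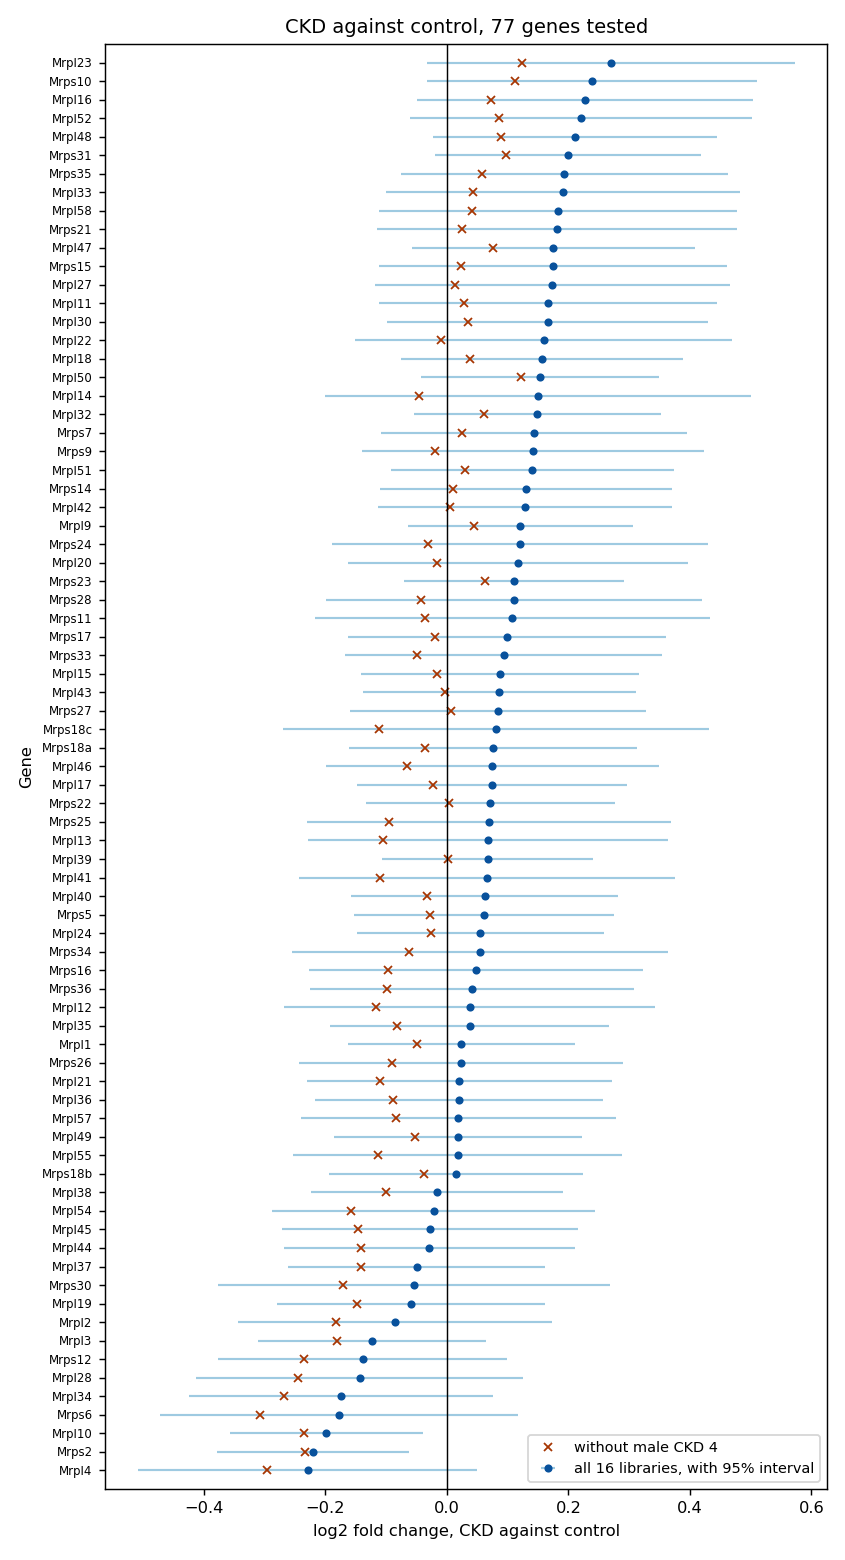
Log2 fold change of CKD against control for each of the 77 genes tested, ordered by size; circles with lines are the estimate and its 95% interval from all 16 libraries, and crosses are the estimate without male CKD 4. The circles lean to the right of 0 and the crosses to the left, while Mrps2 and Mrpl10 at the bottom stay between -0.24 and -0.20 in both.

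Mrps2 encodes the mitochondrial counterpart of bacterial S2, a protein on the back of the small subunit (ENSMUSG00000035772.11, chromosome 2, 28468066 to 28471178, plus strand, GRCm38). The male controls had 31.9, 35.9, 32.1 and 38.9 CPM, and the male CKD mice 29.1, 28.7, 31.8 and 31.7 CPM. The female controls had 34.4, 34.5, 33.1 and 34.2 CPM, and the female CKD mice 30.4, 30.1, 29.9 and 24.4 CPM. All 8 CKD libraries were below all 8 controls, although the highest CKD library and the lowest control, both male, were 31.8 and 31.9 CPM. No other tested gene of the 77 separated the arms in this way, in either direction. Among all genes tested, 0.0427% had every CKD library below every control and 0.159% above. The log2 fold change was -0.22 (SE 0.075, 95% interval -0.38 to -0.061), with an adjusted p of 0.180 by edgeR's quasi-likelihood test with Benjamini-Hochberg adjustment, so it did not pass. Over all settings tried it stayed between -0.27 and -0.17. Mrps2 was also the gene with the smallest spread within groups, 0.11 log2 against a median of 0.25 for the 77, and the only one of the 77 that was not above its mean in male CKD 4.

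Mrpl10 followed the same course less cleanly. It encodes the base of the stalk, to which Mrpl12 binds (ENSMUSG00000001445.10, chromosome 11, 97041560 to 97049213, plus strand, GRCm38). The male controls had 58.0, 47.9, 58.6 and 60.1 CPM, the male CKD mice 51.3, 43.8, 45.3 and 57.0 CPM, the female controls 50.6, 52.2, 50.1 and 50.2 CPM, and the female CKD mice 44.7, 42.4, 41.4 and 47.1 CPM. In females all CKD libraries were below all controls, and in males the groups overlapped. The log2 fold change was -0.20 (SE 0.076), with an adjusted p of 0.222 by edgeR's quasi-likelihood test with Benjamini-Hochberg adjustment. It stayed between -0.26 and -0.16 over all settings.

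The promoters of Mrps2 and Mrpl10 are shown because these were the genes with the lowest p. They are RefSeq windows on GRCm38.p6 from 250 bases before to 50 bases after the start, at chr2:28467816-28468115 and chr11:97041332-97041631, both on the plus strand. Capitals mark matches, on either strand, to the cores of 3 motifs given further on. The Mrpl10 window has 1 match, to the NRF1 core, and the Mrps2 window has 0.
Mrps2: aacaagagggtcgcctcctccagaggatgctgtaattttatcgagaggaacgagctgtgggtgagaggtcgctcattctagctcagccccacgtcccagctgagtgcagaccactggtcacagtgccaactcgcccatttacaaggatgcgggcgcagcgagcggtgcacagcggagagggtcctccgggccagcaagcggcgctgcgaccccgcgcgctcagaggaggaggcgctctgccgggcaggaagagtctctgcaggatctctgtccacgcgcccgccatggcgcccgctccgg
Mrpl10: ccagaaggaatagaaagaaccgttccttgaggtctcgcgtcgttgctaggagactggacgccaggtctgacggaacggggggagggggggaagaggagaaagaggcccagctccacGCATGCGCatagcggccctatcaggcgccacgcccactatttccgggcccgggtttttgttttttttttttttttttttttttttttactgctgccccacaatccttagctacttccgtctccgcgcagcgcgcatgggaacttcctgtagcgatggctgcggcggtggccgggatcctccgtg

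The other large negative estimates were Mrpl4 and Mrps6. Mrpl4, which lines the exit tunnel of the large subunit, had a log2 fold change of -0.23 (SE 0.13), and Mrps6, a counterpart of bacterial S6, one of -0.18 (SE 0.14). Mrps6 had 20.0, 19.7, 28.7 and 22.02 CPM in male controls and 17.9, 14.4, 16.5 and 30.8 CPM in male CKD mice. It had 20.9, 20.1, 19.3 and 24.3 CPM in female controls and 21.2, 17.9, 19.8 and 16.2 CPM in female CKD mice. The arms overlapped in both sexes, and Mrps6 reached -0.31 without male CKD 4.

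The largest positive estimates belonged to Mrpl23, Mrps10, Mrpl16 and Mrpl52. Mrpl23 sits at the mouth of the exit tunnel (ENSMUSG00000037772.13, chromosome 7, 142532686 to 142540747, plus strand). It had 59.1, 58.2, 89.8 and 57.0 CPM in male controls and 64.0, 65.4, 62.7 and 127.8 CPM in male CKD mice. In female controls it had 64.9, 55.4, 57.0 and 65.9 CPM, and in female CKD mice 69.1, 82.1, 72.9 and 68.0 CPM. All female CKD libraries were above all female controls, and among males the high values were male control 3 and male CKD 4. The log2 fold change was 0.27 (SE 0.14), with an adjusted p of 0.376 by edgeR's quasi-likelihood test with Benjamini-Hochberg adjustment, and it was 0.12 without male CKD 4. The processed pseudogene Mrpl23-ps1 had 526 to 1261 counts a library against 606 to 1351 for Mrpl23 and a log2 fold change of 0.29 (SE 0.15), and how reads that fit both were assigned is not known.

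Mrps10, at the head of the small subunit, had 26.1, 23.8, 33.0 and 25.5 CPM in male controls and 25.02, 22.7, 28.7 and 47.7 CPM in male CKD mice. It had 23.2, 24.7, 23.8 and 26.6 CPM in female controls and 31.5, 29.4, 28.3 and 30.3 CPM in female CKD mice. The female groups did not overlap and the male groups did. Its log2 fold change was 0.24 (SE 0.13), and 0.11 without male CKD 4. Mrpl16, near the catalytic centre of the large subunit, gave 0.23 (SE 0.13), and 0.073 without that library. Mrpl52, a large-subunit protein found only in mitochondria, gave 0.22 (SE 0.13), and 0.085 without it. None of these 3 passed, with adjusted p of 0.386, 0.418 and 0.438 by edgeR's quasi-likelihood test with Benjamini-Hochberg adjustment.

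**Figure D3:**
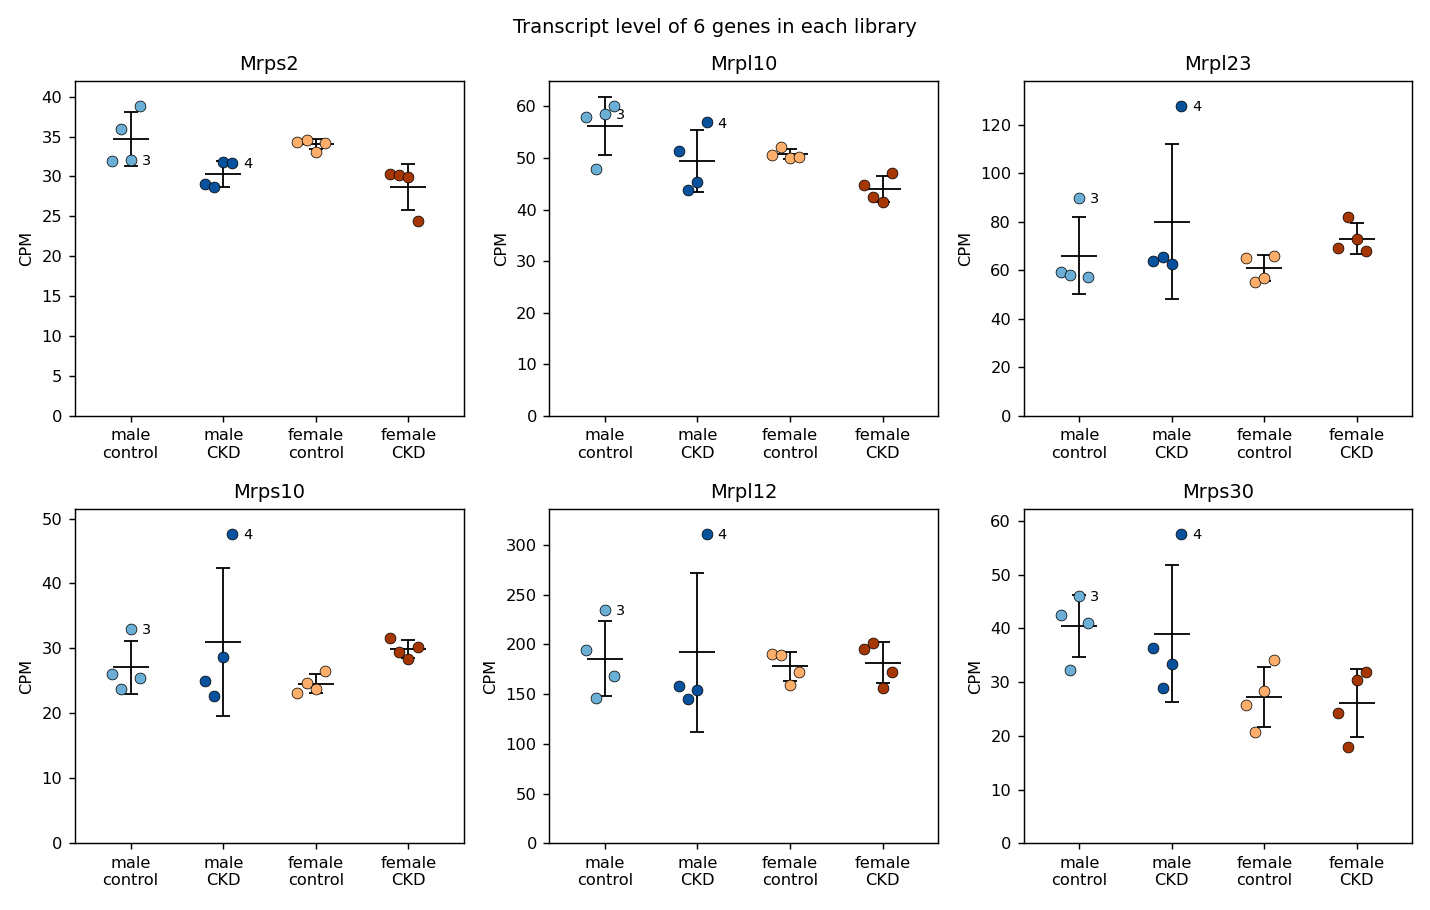
CPM of 6 genes in each library, with 1 point a mouse and bars for the mean ± SD of 4 mice; male control 3 and male CKD 4 carry their number. In Mrps2 every CKD point is below every control point, in Mrpl23 and Mrps10 the female groups are apart and male CKD 4 lies far above its group, and Mrps30 is lower in most females than in males.

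Grouped by place in the ribosome, 0 members were called in each group. The stalk genes Mrpl10, Mrpl11 and Mrpl12 differed among themselves. Mrpl11 gave 0.17 (SE 0.13) and Mrpl12 gave 0.038 (SE 0.15), against the negative value of Mrpl10. These became 0.028 and -0.12 without male CKD 4. The exit site, where new membrane proteins leave the ribosome, had 5 of 6 genes above 0 and a median of 0.12. Its member Mrpl45, which ties the ribosome to the inner membrane, gave -0.028 (SE 0.12), with 100.4 CPM ± 10.1 (SD, n = 8) in controls and 98.6 CPM ± 21.9 (SD, n = 8) with CKD, and -0.15 without male CKD 4. The central protuberance had 5 of 6 above 0, with a median of 0.068. Without male CKD 4 the exit-site and protuberance medians were below 0, at -0.017 and -0.049.

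Medians by ancestry were close. The 30 large-subunit genes with a bacterial counterpart had a median of 0.071 and the 20 tested without one 0.067. The 16 small-subunit genes with a counterpart had a median of 0.11 and the 11 without one 0.072. In the same order, these 4 medians were -0.036, -0.044, -0.029 and -0.038 without male CKD 4. In these sets Mrps18c was counted with a counterpart, and Mrps18a and Mrps18b without one. Mrps36, described below as a subunit of another complex, was counted among the 11. The 3 paralogues of bacterial S18 occupy different places, Mrps18a in the large subunit and Mrps18b and Mrps18c in the small. They gave 0.076 (SE 0.11), 0.016 (SE 0.099) and 0.081 (SE 0.17), and without male CKD 4 they gave -0.036, -0.038 and -0.11.

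Of the genes whose inherited defects cause cardiomyopathy, 0 of 4 passed. Mrpl3, near the peptidyl transferase centre, had 117 CPM ± 6.25 (SD, n = 8) in controls and 108 CPM ± 15.7 (SD, n = 8) with CKD, a log2 fold change of -0.12 (SE 0.089). Mrpl44, a large-subunit protein related to RNase III, gave -0.029 (SE 0.11). Mrps14 gave 0.13 (SE 0.11) and Mrps22 gave 0.072 (SE 0.097), both small-subunit proteins. Mrpl58, a peptidyl-tRNA hydrolase that frees stalled chains, gave 0.18 (SE 0.14). Mrps12, the counterpart of the bacterial target of streptomycin, gave -0.14 (SE 0.11), and Mrps5 gave 0.062 (SE 0.10). Mrps36, which despite its name is known as a subunit of the 2-oxoglutarate dehydrogenase complex, gave 0.041 (SE 0.13). The positive estimates shrank or turned without male CKD 4: Mrps14 gave 0.0094, Mrps22 0.0031 and Mrpl58 0.042, while Mrps5 gave -0.028 and Mrps36 -0.098. The negative ones grew, to -0.18 for Mrpl3, -0.14 for Mrpl44 and -0.23 for Mrps12.

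The pattern that set libraries apart was shared by nearly all of these genes. Male CKD 4 was the highest of all 16 libraries for 74 of 77 genes, whereas it was the highest for 21.8% of all genes tested. It was above the other 3 male CKD libraries for 76 of 77 genes, against 37.4% of all genes. The median gene stood 0.67 log2 above its mean over the libraries there, with a median over all genes of 0.037. The range ran from -0.0041 for Mrps2, 0.20 for Mrpl10 and 0.20 for Mrpl50 to 0.96 for Mrps18c and 1.06 for Mrpl14. Male control 3 came second, with a median of 0.24 and 65 of 77 genes above their mean, while Mrpl50 was 0.39 below its mean in it. The other libraries had medians from -0.17 to 0.082. Leaving out male CKD 4 took the median within-group spread of the genes from 0.25 to 0.14 log2. As given above, this library also had lower fibroblast and endothelial and higher cardiomyocyte marker sums, and its macrophage markers summed to 100.5 CPM against 232, 226 and 239 CPM. Their part in the result was not tested. On library totals without TMM scaling the 78 genes still summed to 7287 CPM there, against 4705, 4928 and 4982 CPM in the other male CKD libraries.

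**Figure D4:**
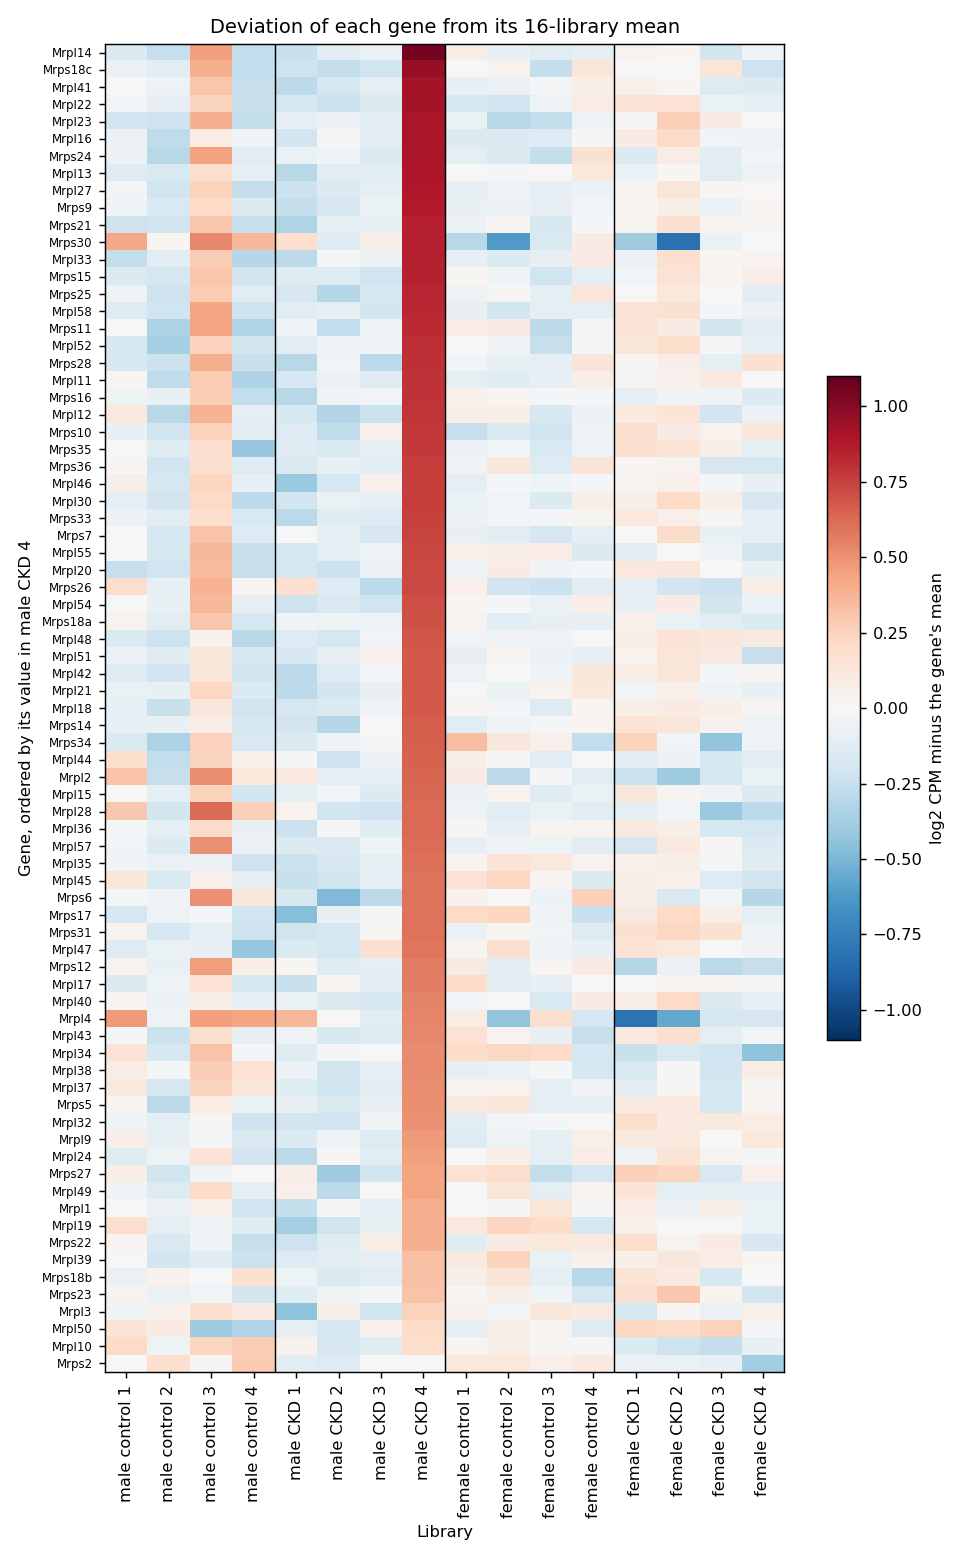
Each row is 1 of the 77 genes tested, ordered by its value in male CKD 4, and each column a library; colour gives log2 CPM minus the gene's mean over the 16 libraries, red above and blue below. The column of male CKD 4 is red for all genes but Mrps2, at the bottom, and male control 3 is the next reddest.

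Within each sex no gene passed either. In males 0 of 77 were called (0% of all genes tested), with 64 above 0 (51.4% of all genes), 13 below and a median of 0.14. At an unadjusted p under 0.05, 0 were higher (3.93%) and 0 lower (2.95%). Without male CKD 4 the males had 10 above and 67 below, with a median of -0.087 against 0.012 over all genes, and 0 called (0%). Male control 3 stayed among the controls in that fit. At an unadjusted p under 0.05 it had Mrpl3, Mrpl10, Mrpl28, Mrpl38, Mrpl54 and Mrps6 lower and no member higher. The largest of these estimates was that of Mrps6, at -0.45 (SE 0.15). The share of all genes at that p is not given here for this fit. With all libraries the largest male estimates were Mrpl47 at 0.31 (SE 0.15) and Mrpl52 at 0.31 (SE 0.19), which became 0.14 and 0.052 without male CKD 4. In the other direction stood Mrps2 at -0.19 (SE 0.11) and Mrpl10 at -0.19 (SE 0.11), which became -0.20 and -0.24. Mrps2 was the only gene whose male groups did not overlap, where 1.57% of all genes had all CKD libraries below and 1.63% above.

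In females 0 of 77 were called (0.0549%), with 46 above 0 (49.3% of all genes), 31 below and a median of 0.027. At an unadjusted p under 0.05, 0 were higher (4.16%) and 2 lower (4.18%), Mrpl34 and Mrps2. The female groups did not overlap for 8 genes with CKD above, or 10.4% of the 77 against 5.09% of all genes tested. These were Mrpl18, Mrpl23, Mrpl27, Mrpl32, Mrpl48, Mrpl58, Mrps10 and Mrps21. For 3 genes, Mrpl10, Mrps16 and Mrps2, or 3.90% against 2.49%, CKD was below. The largest female estimate was that of Mrpl34, a small basic protein of the large subunit, at -0.39 (SE 0.16, adjusted p = 0.516 by edgeR's quasi-likelihood test with Benjamini-Hochberg adjustment). Mrpl34 had 51.1, 51.9, 51.4 and 38.7 CPM in female controls and 37.4, 39.5, 38.4 and 32.7 CPM in female CKD mice. It had 49.6, 38.9, 55.3 and 43.8 CPM in male controls and 40.5, 43.6, 44.5 and 63.9 CPM in male CKD mice. Female control 4 lay among the CKD values, so the female groups overlapped.

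The CKD effect was not shown to differ between the sexes for any of these genes. The interaction term called 0 of 77 (0% of all genes tested), and 12 estimates were above 0 (46%), with a median of -0.11. Without male CKD 4 there were 63 above and 14 below, with a median of 0.10 against -0.038 over all genes, and 0 called. Its lowest p belonged to Mrpl34, whose effect in females minus that in males was -0.42 log2 (SE 0.22), followed by Mrps34, a small-subunit protein, at -0.37 (SE 0.29). Both had adjusted p of 1.0 by edgeR's quasi-likelihood test with Benjamini-Hochberg adjustment. The intervals of the interaction were wide, with only 26 of 77 inside a 1.5-fold difference. As each library was left out, the interaction estimate ranged from -0.53 to -0.29 for Mrpl34 and from -0.50 to -0.19 for Mrps34. Without male CKD 4 the CKD effect of Mrpl34 was -0.40 in females and -0.11 in males. A share of 63.4% of the annotated exon bases of Mrps34 overlaps Mapk8ip3 on the opposite strand and 37.0% overlaps Nme3 on the same strand, so its counts are uncertain.

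Between the sexes, 0 of 77 genes were called in controls (0.0366%), with 38 higher in females (51.5% of all genes tested), 39 lower and a median of -0.00089. At an unadjusted p under 0.05, 0 were higher (2.34% of all genes) and 2 lower (4.51%), Mrps30 and Mrpl4. Other settings moved the estimates toward females: with the title code number as a factor 68 genes were higher in females and 9 lower, with a median of 0.14 against 0.019 over all genes. With only the libraries of code number 6 there were 64 higher and 13 lower, with a median of 0.089 against 0.038. With limma-voom 55 were higher, with a median of 0.043, and with code number 3 left out 59, with a median of 0.065. In these 4 fits too, 0 members were called. The share of all genes higher in females is not given here for them. For limma-voom and for code number 3 left out, the median over all genes is not given either. How far these shifts are particular to the members is therefore not shown. With all libraries, Mrps30 and Mrpl4 had the largest differences in both arms. Mrps30, a large-subunit protein despite its name, had 42.5, 32.3, 46.0 and 40.9 CPM in male controls and 25.8, 20.6, 28.4 and 34.0 CPM in female controls, which overlapped. In CKD mice it had 36.3, 28.8, 33.4 and 57.6 CPM in males and 24.3, 17.9, 30.3 and 31.9 CPM in females. The female minus male difference was -0.57 log2 (SE 0.22) in controls and -0.58 (SE 0.22) in CKD mice, with adjusted p of 0.639 and 0.282 by edgeR's quasi-likelihood test with Benjamini-Hochberg adjustment. After removal of each library's trend with the GC content of genes, these were -0.79 and -0.81. In CKD mice the difference was -0.33 (SE 0.19) without male CKD 4.

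Mrpl4 (ENSMUSG00000003299.10, chromosome 9, 21002738 to 21008839, plus strand) had 96.5, 66.8, 95.5 and 94.3 CPM in male controls and 73.5, 51.4, 79.2 and 61.2 CPM in female controls. In CKD mice it had 89.98, 69.4, 64.4 and 101 CPM in males and 39.6, 47.2, 61.6 and 61.2 CPM in females. The sexes overlapped in controls and did not in CKD mice. The female minus male difference was -0.41 (SE 0.19) in controls and -0.63 (SE 0.19) in CKD mice, with adjusted p of 0.639 and 0.250 by edgeR's quasi-likelihood test with Benjamini-Hochberg adjustment. It was the only gene of the 77 called in any comparison under any setting: limma-voom with quality weights gave -0.54 (SE 0.16) in CKD mice with an adjusted p of 0.0497, where that method called 9.48% of all genes. Leaving out male CKD 4 gave -0.51 (SE 0.19) in CKD mice. With the GC trend removed the differences were -0.14 in controls and -0.32 in CKD mice. The rank correlation across genes between GC content and a library's deviation was above 0 in all male libraries, up to 0.55, and between -0.49 and 0.14 in females, so GC trend and sex moved together.

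In CKD mice 0 of 77 differed between the sexes (0.0427% of all genes tested), with 12 higher in females (48.9%), 65 lower and a median of -0.11. At an unadjusted p under 0.05, 0 were higher (4.73%) and 5 lower (10.3%): Mrpl2, Mrpl4, Mrpl34, Mrps12 and Mrps30. Without male CKD 4 there were 66 higher and 11 lower, a median of 0.15 against 0.048 over all genes, and 0 called (0.0603%). At an unadjusted p under 0.05 that fit gave 1 lower gene, Mrpl4, and 6 higher: Mrpl9, Mrpl32, Mrpl48, Mrps14, Mrps31 and Mrps33. The counts were 12 higher and 1 lower with code number 3 left out, and 16 higher and 2 lower with only code number 6. For these fits on fewer libraries the share of all genes at that p is not given here. Without that share these counts cannot be set against those of other genes, and no conclusion is drawn from them.

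The rest of the mitochondrial translation machinery was read from lists of related genes. None of their genes passed for CKD against control, in either direction. Of 5 mitoribosomal proteins with other names, such as Dap3 and Ptcd3, 5 were above 0 with a median of 0.13, and -0.023 without male CKD 4. Their lowest p was that of Chchd1, at 0.17 (SE 0.14), and 0.0055 without that library. In male CKD 4 this small-subunit protein had 122 CPM, against 52.0, 61.4 and 63.3 CPM in the other male CKD mice. The 12 translation factors had a median of -0.027, led by the release factor gene Mtrf1 at 0.17 (SE 0.092). The 20 genes for charging mitochondrial tRNA had a median of 0.018, led by Yars2, the synthetase for tyrosine, at -0.29 (SE 0.13). Of these, Qrsl1, Gatb and Gatc encode subunits of an amidotransferase, and the others are tRNA synthetases. The 24 assembly factors had a median of -0.0024. Their lowest p was that of Mettl15, a methyltransferase of the small-subunit ribosomal RNA, at 0.31 (SE 0.10) with an adjusted p of 0.172 by edgeR's quasi-likelihood test with Benjamini-Hochberg adjustment.

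Mettl15 had 12.6, 12.6, 8.71 and 9.22 CPM in male controls and 11.3, 13.8, 14.1 and 14.6 CPM in male CKD mice. It had 12.6, 13.03, 11.45 and 13.7 CPM in female controls and 16.8, 15.02, 16.6 and 13.8 CPM in female CKD mice. The female groups were apart and the male groups overlapped. Tfb2m, a mitochondrial transcription factor, led the 8 genes of mitochondrial transcription and mRNA at 0.23 (SE 0.093). Gabpa, the DNA-binding subunit of an ETS factor that acts on many nuclear genes for mitochondria, led the 9 nuclear regulators at 0.21 (SE 0.11). The products of the ribosome gave no call either: the 13 mitochondrially encoded protein genes were all above 0, with a median of 0.062, and the ribosomal RNA genes mt-Rnr1 and mt-Rnr2 had a median of 0.053. Without male CKD 4 the medians were -0.046 for translation factors, -0.038 for tRNA charging, -0.060 for assembly factors and -0.028 for mitochondrial transcription and mRNA. They were 0.0074 for nuclear regulators, 0.034 for the mitochondrially encoded proteins, of which 11 of 13 were above 0, and 0.023 for the ribosomal RNA. In that fit Mtrf1 gave 0.11, Mettl15 0.29, Yars2 -0.35, Tfb2m 0.24 and Gabpa 0.25.

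The 78 genes are spread over 17 chromosomes, with 11 on chromosome 11, 8 on chromosome 17 and 0 on X. Over the longest transcript of each gene, the median GC content of the 77 tested was 49.7%, against 49.4% for all genes tested. A start site close to that of a gene on the other strand was common. Of the 78 genes, 33, or 42.3%, had a protein-coding gene starting within 1000 bases on the opposite strand in M21, against 15.4% of 13080 protein-coding genes tested. Some partners have mitochondrial roles, such as Twnk beside Mrpl43, Ndufs6 beside Mrpl36, Ndufb5 beside Mrpl47 and Sars2 beside Mrps12. These are examples: the share of such partners was not counted or set against that of other genes. In 1 case both genes were mitochondrial ribosomal protein genes, Mrps11 and Mrpl46 on chromosome 7.

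RefSeq promoter windows of 300 bases were matched for 69 of the 78 genes, 75 windows in all. The core of the ETS motif (CCGGAAG), which Gabpa binds, was present on either strand in 26 of 69 genes, or 37.7%, against 9.93% of 27025 genes in the table. The core of the NRF1 motif (GCATGCGC) was present in 8 of 69, or 11.6%, against 3.05%, and the core of the YY1 motif (AAGATGGCG) in 8 of 69, or 11.6%, against 1.64%. A TATA box (TATAAA) was present in 5 of 69, or 7.25%, against 15.7%. Counted by window, the shares were 34.7% of the 75 against 8.86% of 32851 for ETS and 10.7% against 2.71% for NRF1. Matches of different motifs were counted separately whether or not they overlapped. The 27025 genes and 32851 windows were not limited to genes tested here, unlike the background for start sites above. The shares are therefore not set against genes of like expression. A match is a description of the letters and not evidence of binding.

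The windows of Mrps11 (chr7:78782881-78783180, plus strand) and Mrpl46 (chr7:78783040-78783339, minus strand) are shown because they share 141 bases, read in opposite directions. The Mrps11 window has 1 match to the YY1 core, in capitals. The Mrpl46 window has 0 matches to the ETS, NRF1 and YY1 cores.
Mrps11: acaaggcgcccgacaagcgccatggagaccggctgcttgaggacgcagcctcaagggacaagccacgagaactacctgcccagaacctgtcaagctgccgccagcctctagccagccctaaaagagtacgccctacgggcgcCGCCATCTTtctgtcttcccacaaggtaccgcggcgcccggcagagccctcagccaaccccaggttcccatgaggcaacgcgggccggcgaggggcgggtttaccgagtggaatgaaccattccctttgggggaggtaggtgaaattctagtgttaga
Mrpl46: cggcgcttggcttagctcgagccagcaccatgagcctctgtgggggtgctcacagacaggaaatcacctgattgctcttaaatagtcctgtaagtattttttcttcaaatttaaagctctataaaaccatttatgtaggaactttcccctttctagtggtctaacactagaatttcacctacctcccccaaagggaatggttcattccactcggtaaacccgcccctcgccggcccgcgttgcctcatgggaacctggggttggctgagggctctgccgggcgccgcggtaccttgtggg

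Mrps11 had 23.4 CPM ± 4.51 (SD, n = 8) in controls and 25.3 CPM ± 7.16 (SD, n = 8) with CKD, and Mrpl46 had 44.7 CPM ± 4.21 (SD, n = 8) and 47.1 CPM ± 12.7 (SD, n = 8). In male CKD 4 they stood at 42.2 and 76.7 CPM, each the highest of its 16 libraries.

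Both the ETS and the NRF1 core were found in the windows of 4 genes, which are shown for that reason, with both cores in capitals. These are Mrpl17 (chr7:105811038-105811337, minus strand) and Mrpl22 (chr11:58171414-58171713, plus strand), both at the exit site, Mrpl33 (chr5:31613701-31614000, plus strand), a small protein near the tRNA exit site, and Mrps18b (chr17:35916391-35916690, minus strand).
Mrpl17: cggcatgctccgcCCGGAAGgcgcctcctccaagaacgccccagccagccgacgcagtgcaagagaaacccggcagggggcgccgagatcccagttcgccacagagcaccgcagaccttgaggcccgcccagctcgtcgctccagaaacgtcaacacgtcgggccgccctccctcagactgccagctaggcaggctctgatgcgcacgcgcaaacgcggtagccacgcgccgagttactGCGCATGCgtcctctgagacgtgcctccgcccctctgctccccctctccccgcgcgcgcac
Mrpl22: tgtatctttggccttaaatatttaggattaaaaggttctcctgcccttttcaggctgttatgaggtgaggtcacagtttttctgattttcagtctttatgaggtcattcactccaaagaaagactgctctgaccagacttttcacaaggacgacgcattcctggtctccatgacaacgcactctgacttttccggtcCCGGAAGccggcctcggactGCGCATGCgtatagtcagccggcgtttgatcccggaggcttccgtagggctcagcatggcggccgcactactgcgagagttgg
Mrpl33: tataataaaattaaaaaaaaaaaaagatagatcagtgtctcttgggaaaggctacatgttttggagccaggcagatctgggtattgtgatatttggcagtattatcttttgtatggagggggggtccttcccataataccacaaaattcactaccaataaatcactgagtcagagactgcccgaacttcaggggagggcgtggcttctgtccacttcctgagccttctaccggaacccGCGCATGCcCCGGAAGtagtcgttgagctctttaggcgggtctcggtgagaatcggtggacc
Mrps18b: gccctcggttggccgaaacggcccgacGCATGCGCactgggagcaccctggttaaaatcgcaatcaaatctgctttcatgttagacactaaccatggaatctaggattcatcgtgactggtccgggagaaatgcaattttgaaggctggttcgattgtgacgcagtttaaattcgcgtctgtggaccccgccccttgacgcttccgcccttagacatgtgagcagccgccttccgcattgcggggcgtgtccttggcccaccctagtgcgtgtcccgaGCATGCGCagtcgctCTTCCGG

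For CKD against control Mrpl17 gave 0.075 (SE 0.11), Mrpl22 gave 0.16 (SE 0.15), Mrpl33 gave 0.19 (SE 0.14) and Mrps18b the 0.016 given above. The first 3 of these gave -0.023, -0.010 and 0.043 without male CKD 4. None passed, and their values in male CKD 4 were 79.1, 63.7, 107 and 19.2 CPM, each above all other libraries. For Mrpl22, 47.1% of the 25-base words of its longest transcript also occur in the pseudogene Gm6997. Gm6997 had 47 to 136 counts a library, against 302 to 673 for Mrpl22. For Mrps18b, 34.9% of these words occur in Gm13552, which had 95 to 197 counts against 126 to 220. In all, 11 of the 78 genes, the untested Mrpl53 among them, shared over 20% of their 25-base words with other genes. A further property, over 20% of exon bases opposite another gene, held for 8. The counts of such genes are less certain than those of Mrpl4, Mrpl34 or Mrps2.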

How the data were processed

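Total RNA from ventricles was sequenced as 50 bp paired-end reads, per the labels' protocols. The deposited values are raw whole-number counts by gene, in 1 table for all libraries. The submitters' processing notes name mm10, STAR 2.6.1d, Subread 1.6.3 with featureCounts, DESeq2 1.30.1, FastQC and MultiQC. No source used here gives the annotation release, the strand setting or the rule for multi-mapped reads, so reads of pseudogenes, overlapping genes and antisense genes can be misassigned. Groups came from the labels of treatment and sex, and replicate numbers follow record order and only name a mouse.

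Genes were kept by filterByExpr (minimum count 10, minimum total 15), scaled by TMM and tested with edgeR 4.0.16 in R 4.3.3 by two-sided quasi-likelihood tests, fitted on all 16400 genes kept, with Benjamini-Hochberg adjusted p-values at 0.05. CKD against control had sex as a covariate, and contrasts within a sex or arm and the interaction came from a model of the 4 groups. At these totals the spread between mice sets the precision (common biological coefficient of variation 0.225). Coordinates, lengths and GC content came from GENCODE M21 (GRCm38). Scripts were tested on simulated data. Alternatives were DESeq2 1.42.0, voom of limma 3.58.1, other scalings and filters, title code number as a factor or restricted to 6, GC trend removal, and leaving out libraries.

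Genes were named by a rule: a panel for structure and disease, the 4 largest estimates each way for CKD against control, the 2 largest each way or, for the interaction, the 2 lowest p in other contrasts, the 4 highest and lowest by RPKM, untested genes, and the gene of lowest p in each related list. Genes outside it, such as those with promoters shown or groups apart, were chosen after their values were seen. The members, the lists and the rule were chosen with earlier results of these data known.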

Additional observations from a re-analysis of the deposited data

Results flagged for a closer look

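Within each group of 4 mice, a Dixon criterion for a library far from its group was applied to 152 sets of values, the summed levels and the named genes. It marked 32, and 19 of them were male CKD 4 as the highest. Chance marks about 1 in 20 independent groups, but these sets are not independent: the sums contain the named genes, the genes move together from library to library, and many were named for large estimates. The number of marks is therefore a description and is not set against that share. This library gave 8312 CPM summed over all the genes, 5655 CPM over Mrpl and 2657 CPM over Mrps genes. Single genes far above their group in it were Mrpl11 (106 CPM), Mrpl12 (311 CPM), Mrpl16 (137 CPM), Mrpl18 (205 CPM), Mrpl23 (128 CPM), Mrpl39 (117 CPM), Mrpl45 (149 CPM) and Mrpl52 (58.0 CPM). The same held for Mrpl58 (98.5 CPM), Mrps18a (106 CPM), Mrps18c (49.4 CPM), Mrps21 (155 CPM), Mrps25 (72.6 CPM), Mrps34 (28.1 CPM), Mrps36 (142 CPM) and Mrps5 (78.5 CPM).

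Male control 3 was far above its group for Mrpl23 (89.8 CPM), Mrpl58 (74.6 CPM) and Mrps21 (105 CPM), and male control 2 far below for Mrpl4 (66.8 CPM). Among female controls, library 3 was lowest for the sum of all genes (5007 CPM), the Mrpl sum (3474 CPM) and Mrpl52 (27.6 CPM). Library 4 was highest for Mrpl16 (73.0 CPM) and lowest for Mrpl34 (38.7 CPM), and library 1 was highest for Mrps18a (66.6 CPM) and lowest for Mrps22 (29.2 CPM). Among female CKD mice, library 2 was highest for Mrps21 (97.0 CPM) and library 4 lowest for Mrps2 (24.4 CPM).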

How the results depend on the processing

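The count of genes called stayed at 0 in all 6 comparisons under every alternative but 1: limma-voom with quality weights called 1, Mrpl4, for females against males in CKD mice. For the same comparison the median log2 difference of the genes, -0.11, became 0.12 with limma-voom and 0.19 with only the libraries of title code number 6, and ranged from -0.20 to 0.15 as each library was left out. For CKD against control in males the median of 0.14 became -0.11 without male CKD 4 and female control 2, and ranged from -0.087 to 0.23 with single libraries left out; male CKD 4 gave the lowest value. The cause was not tested. With single libraries left out the median for CKD against control ranged from -0.036 (male CKD 4) to 0.11, in females from -0.032 to 0.052, and for females against males in controls from -0.038 to 0.083. Over the other alternatives the last of these medians ran from -0.038 with the GC trend removed to 0.14 with the title code number as a factor. Without the libraries of title code number 3, male control 3 and male CKD 4, an alternative chosen after seeing the data, CKD against control gave 40 genes above 0, 37 below and a median of 0.0078. Of the values of single genes, 14 moved by more than their error and 1492 did not. No paired analysis was possible because the replicate numbers come from record order and the labels pair no mice. The standard errors, with a median of 0.12 log2, limit what 8 against 8 mice can resolve.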
